A study of Mus musculus with 3 samples.

Results

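Monocytes are short-lived white cells that leave the bone marrow, circulate in blood and enter tissues, where they can become macrophages or dendritic cells. In mice the classical kind carries Ly6C, a surface protein encoded by Ly6c2 and Ly6c1, and enters inflamed tissue through the chemokine receptor Ccr2. The nonclassical kind carries little Ly6C, depends on the nuclear receptor Nr4a1 and crawls along the inside of small vessels, and angiotensin-converting enzyme (Ace) and the receptor Treml4 are among its known transcripts. Monocytes were picked from 3 single-cell RNA-Seq libraries of mononuclear cells of the mouse costal diaphragm, and 66 of 12275 cell barcodes met the criteria. There were 9 of 4132 in the WT CD library, 14 of 3774 in the WT HFD library and 43 of 4369 in the KO HFD library. In every library some monocytes held more Ly6c2 and Chil3 than Ace transcripts and others more Ace. The same genes chose the cells, so this is a description and does not show separate kinds of monocyte. The share of monocytes among barcodes was 2.65 times as high in the KO HFD library as in the WT HFD library.

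A barcode was taken as a monocyte when it held at least 3 unique molecular identifiers (UMIs, each marking 1 captured transcript) of the lysozyme gene Lyz2 and at least 2 of Ly6c2, Chil3 and Ace together. It could hold at most 3 UMIs of C1qa, C1qb and C1qc, fewer than 3 of Mmp12, Retnla and Ear2, at most 1 of Pecam1, and none of Retnlg, Pdgfra, Cd79a or Flt3. These limits remove barcodes with transcripts of macrophages, neutrophils, fibro-adipogenic progenitors (FAPs, the stromal cells of muscle), endothelial cells, B cells and dendritic cells. All of these genes were used to choose the monocytes, so their levels are a description and support nothing.

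The study asked how diet-induced obesity and the secreted matrix protein thrombospondin-1 (Thbs1) bear on the diaphragm. The WT CD and WT HFD groups were male C57Bl/6J mice kept for 6 months on control diet or on a high fat diet with 45% of calories from lipid, begun at 2 months of age. The KO HFD group was B6.129S2-Thbs1tm1Hyn/J mice, a whole-body Thbs1-/- line kept on a C57BL/6J background, on the same high fat diet for 6 months. Each group was 1 library of cells pooled from 2 mice, made by collagenase II digestion with dead cells sorted out by DAPI. KO mice on control diet were not analysed here, so the effect of diet in KO mice is not given. Mouse to mouse spread was therefore not measured, no test between groups was possible, and every interval below covers counting error only. The library totals ranged from 31967976 to 36478779 UMIs with medians of 7554 to 8041.5 UMIs per barcode.

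The promoters of the 3 genes counted together in the criteria, and of Ly6c1, the neighbour of Ly6c2, are printed because these genes define the cells and because Ly6c2 and Ly6c1 are often measured together as Ly6C. Each is the 250 bases before a RefSeq start of the gene on GRCm38.p6, read on the gene's own strand, with capitals at the core letters GAGGAA, or TTCCTC on the other strand, of the binding motif of PU.1 (Spi1), a transcription factor of monocytes and macrophages. Ly6c2 is at chr15:75111972-75112221 (minus strand), Ly6c1 at chr15:75048838-75049087 (minus), Chil3 at chr3:106167565-106167814 (minus) and Ace at chr11:105967698-105967947 (plus).
Ly6c2: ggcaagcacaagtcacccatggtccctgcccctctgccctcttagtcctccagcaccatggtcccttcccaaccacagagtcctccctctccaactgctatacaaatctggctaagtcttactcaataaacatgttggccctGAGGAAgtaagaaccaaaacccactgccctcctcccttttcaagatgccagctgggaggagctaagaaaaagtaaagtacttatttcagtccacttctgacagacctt
Ly6c1: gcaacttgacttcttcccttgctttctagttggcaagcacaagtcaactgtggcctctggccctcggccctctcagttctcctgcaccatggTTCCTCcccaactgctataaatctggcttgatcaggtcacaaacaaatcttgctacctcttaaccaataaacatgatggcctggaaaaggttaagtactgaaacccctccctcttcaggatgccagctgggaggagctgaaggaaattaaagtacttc
Chil3: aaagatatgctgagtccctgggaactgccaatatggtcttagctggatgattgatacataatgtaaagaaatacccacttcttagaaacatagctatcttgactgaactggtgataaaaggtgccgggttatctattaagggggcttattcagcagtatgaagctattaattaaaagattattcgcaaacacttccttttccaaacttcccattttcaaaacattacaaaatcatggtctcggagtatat
Ace: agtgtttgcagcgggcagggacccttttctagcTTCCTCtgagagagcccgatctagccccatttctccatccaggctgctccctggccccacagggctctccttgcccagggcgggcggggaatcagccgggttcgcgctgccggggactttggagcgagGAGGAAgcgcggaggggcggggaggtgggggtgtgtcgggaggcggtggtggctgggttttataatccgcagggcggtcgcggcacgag
The core letters stood 108 bases before the start of Ly6c2, 158 bases before that of Ly6c1, and 217 and 89 bases before that of Ace, and they were not in the window of Chil3. RefSeq gives Ly6c2, Ly6c1 and Ace another start each, and before those starts the letters stood at 142 and 8 bases for Ly6c2 and at 127 bases for Ly6c1 and were not in the window of Ace. These letters were in 23.3% of the 32851 RefSeq promoters of the same length, so a match describes the sequence and is not a binding site. The promoters of Ly6c2 and Ly6c1 were identical at 59.0% of 290 aligned columns, gaps counted. The monocytes held 231 UMIs of Ly6c2 and 5 of Ly6c1, all 5 in the KO HFD library, while the 3 whole libraries held 7834, 10236 and 10073 UMIs of Ly6c1, which vascular endothelial cells also express. Reads that fit either gene could not be told apart from the counts.

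The 4 genes that mark these cells were present in every library, and all monocytes lay far above the Lyz2 limit, the lowest at 15 UMIs. Ly6c2 gave 53 UMIs in WT CD, 42 in WT HFD and 136 in KO HFD monocytes, which is 773, 410 and 491 UMIs per 1000000 UMIs of the monocytes (CPM). Chil3, a chitinase-like secreted protein, gave 30, 25 and 210 UMIs (437, 244 and 758 CPM). Ace gave 14, 19 and 69 UMIs (204, 185 and 249 CPM). The Ly6c2 value of the WT CD library rested on few cells, since 81.1% of it came from a single barcode. Plac8, a small cysteine-rich protein of myeloid cells that the criteria did not use, gave 123, 253 and 768 UMIs (1793, 2470 and 2772 CPM). It was found in 6 of 9, 12 of 14 and 35 of 43 monocytes (66.7, 85.7 and 81.4%), and in 17.6, 18.0 and 21.2% of barcodes with 2 or more UMIs of Pdgfra, which are FAPs, cells of another lineage. The monocytes had medians of 7829, 6904.5 and 6448 UMIs and those FAP barcodes 8841, 9360 and 8682. Monocytes held 93.8, 41.7 and 69.8% of all Chil3 UMIs of their library but only 6.86, 33.3 and 14.5% of its Ly6c2 and 0.279, 0.411 and 1.24% of its Ace UMIs, so Ly6c2 and Ace were mostly in other cells.

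Markers of other cell types were low in the monocytes as a group. Of 9 neutrophil markers 7 were at 0, S100a9 and Ly6g among them, and the list summed to 72.9, 78.1 and 72.2 CPM in the libraries in the order above, most of it Csf3r, which monocytes can also express. The platelet, mesothelial, and mast cell and eosinophil lists were at 0 in all 3 libraries, and erythroid genes gave 1 UMI. Of 13 macrophage markers Mertk, Folr2, Timd4, Vsig4, Cbr2 and Pf4 were at 0, and the list sum of 2420, 1250 and 3494 CPM was nearly all Apoe, the apolipoprotein, with 1184 UMIs. Of 10 dendritic cell markers 6 were at 0, Xcr1, Clec9a and Zbtb46 among them, and the list summed to 364, 234 and 36.1 CPM with Cd209a on top. B cell markers summed to 160, 117 and 79.4 CPM, T and NK cell markers to 160, 0 and 3.61 CPM, endothelial markers to 29.2, 58.6 and 43.3 CPM and muscle markers to 0, 97.6 and 126 CPM. FAP markers summed to 87.5, 166 and 1238 CPM. A single KO HFD barcode gave 309 of the 343 FAP marker UMIs of its library, among them 197 of Gsn and 65 of Dcn, and 1 KO HFD monocyte was called a doublet by Scrublet, a caller of barcodes that hold more than 1 cell. No barcode was shared between libraries among the monocytes, although the whole libraries shared 2 to 7 barcodes pairwise.

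Monocytes made up 0.218% of the WT CD barcodes (exact Clopper-Pearson 95% interval 0.0996 to 0.413), 0.371% of the WT HFD barcodes (0.203 to 0.622) and 0.984% of the KO HFD barcodes (0.713 to 1.32). The KO HFD share was higher than the WT HFD share by 0.613 percentage points (Newcombe 95% interval 0.257 to 0.984), which is beyond counting error. The WT HFD share exceeded the WT CD share by 0.153 points with an interval of -0.0933 to 0.424, so a difference between the diets was not detectable at this number of cells. The order was the same among barcodes with a UMI of Ptprc, the pan-leukocyte gene CD45, where monocytes were 1.26, 2.25 and 5.86%. Among barcodes with 3 or more Lyz2 UMIs they were 2.55, 2.68 and 6.90%, so that the 2 WT libraries lay 0.127 points apart (-2.34 to 2.26) and the KO HFD library 4.23 points above WT HFD (1.75 to 6.73). Other Lyz2 barcodes were counted in the same way. Barcodes with 3 or more UMIs of Mmp12, Retnla and Ear2 together were in the same order as the monocytes, at 4.04, 4.95 and 6.04% of barcodes, with KO HFD 1.09 points above WT HFD (0.0908 to 2.08). C1q macrophages were not. Barcodes with 10 or more C1q UMIs were 160, 344 and 329 (3.87, 9.11 and 7.53% of barcodes), so there were 5.63, 4.07 and 13.1 monocytes per 100 C1q macrophages.

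**Figure D1:**
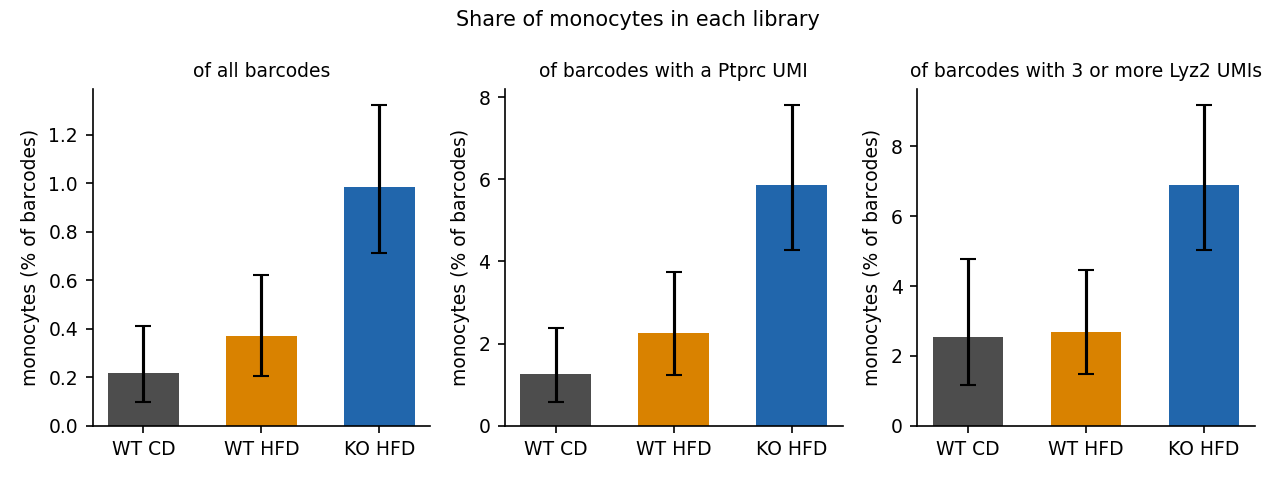
Bars give monocytes as a percentage of all barcodes, of barcodes with a Ptprc UMI and of barcodes with 3 or more Lyz2 UMIs in the 3 libraries (1 library of 2 pooled mice each), and lines give exact 95% intervals for counting error. The KO HFD bar is the tallest in each panel at 0.984, 5.86 and 6.90%, and the intervals of the 2 WT libraries overlap.

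The limit on Lyz2 alone kept out 262 barcodes and the limit on Ly6c2, Chil3 and Ace alone 129. The limit on the sum of Mmp12, Retnla and Ear2 alone kept out 26 barcodes, 5, 7 and 14 in the 3 libraries, which all held Ear2, an eosinophil-type ribonuclease that nonclassical monocytes also express. They carried 99 Ace UMIs in 23 barcodes and 52 Treml4 UMIs in 18 but 10 Ly6c2 UMIs in 3. Of the 66 monocytes, 9 stood at the highest sum allowed, 2 UMIs, and 14 stood at the lowest allowed sum of Ly6c2, Chil3 and Ace, also 2 UMIs. No monocyte had more than 1 C1q UMI, and 9 barcodes were kept out by the C1q limit alone. With Ear2 left out of the criteria there were 13, 21 and 54 monocytes (0.315, 0.556 and 1.24% of barcodes), and the KO HFD share was then 0.680 points above the WT HFD share. With every barcode thinned to 3000 UMIs before the criteria were applied there were 9, 14 and 39 monocytes (0.244, 0.407 and 0.981%), and the KO HFD share was 0.575 points above the WT HFD share.

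Outside the genes of the criteria, and among genes with at least 100 UMIs over the monocytes, the transcript highest in the monocytes against all other barcodes was that of Ms4a4c. Levels are summed CPM, and since each UMI is 1 captured 3′ end no division by length was made. Ms4a4c, a membrane protein of the Cd20 family, stood at 190, 508 and 325 CPM in the monocytes of the 3 libraries and at 8.44, 4.17 and 4.61 CPM in all other barcodes, a mean log2 ratio over the 3 libraries of 5.85. It was followed by Apoc2 (5.83), haptoglobin (Hp, 5.41), the integrin LFA-1 chain Itgal (5.41), Lst1 (4.99), the pattern receptor Clec4e (4.67), Plac8 (4.52), Igsf6 (4.51), Ifitm6 (4.49) and Ms4a6c (4.49). Hp was at 350, 459 and 682 CPM against 11.1, 10.5 and 12.3 CPM in the rest. The most abundant named transcripts were Tmsb4x, Lyz2, Fth1, Malat1, Fau, Actb, Ftl1, Tpt1, Cd74 and Eef1a1, with Tmsb4x between 19146 and 25046 CPM and Cd74, the invariant chain of MHC class II, between 1924 and 12902 CPM. Cd74 thus varied more between the libraries than any other of these 10 genes.

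Against C1q macrophages of the same library, and among the same genes, the monocytes stood apart mainly in Plac8, with 1793, 2470 and 2772 CPM against 12.7, 0.285 and 19.1 CPM. The mean log2 ratio was 8.61 for Plac8, 6.19 for Itgal, 4.95 for Ms4a4c and 4.24 for Hp, and Gsr, Napsa, Apoc2, Msrb1, Mgst1 and Gngt2 followed between 3.85 and 2.59. Lower in the monocytes were Slpi (-3.47), the class II genes H2-Eb1 (-2.80), H2-Ab1 (-2.19) and H2-Aa (-2.05), the metallothionein Mt1 (-1.89) and Apoe (-1.76). The classical monocyte list (12 genes) summed to 4140, 5438 and 6353 CPM in monocytes and to 1466, 1491 and 1343 CPM in C1q macrophages. The nonclassical list (15 genes) summed to 2435, 2656 and 3025 CPM against 868, 1454 and 1111 CPM. These contrasts follow in part from the criteria and are given without a test.

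The monocytes fell on 2 sides by the genes that chose them. In 41 monocytes Ly6c2 and Chil3 UMIs together outnumbered those of Ace (the Ly6c2 side), in 22 Ace was ahead (the Ace side) and 3 were tied. Only 13 of 66 held both kinds of transcript, and 6 lay within 1 UMI of a tie. The Ly6c2, Ace and tied counts were 6, 3 and 0 in WT CD, 8, 5 and 1 in WT HFD and 27, 14 and 2 in KO HFD. The Ace side was thus 33.3, 35.7 and 32.6% of the monocytes. These shares were 53.8, 42.9 and 38.9% with Ear2 left out of the criteria and 55.6, 42.9 and 33.3% after thinning. By the criteria as given the difference was 2.38 points between the diets (-34.4 to 35.6). Between KO HFD and WT HFD it was -3.16 points (-31.4 to 21.3). A shift between the sides of up to about these bounds could not have been seen. The sides also differed in depth, with median totals of 7823 UMIs on the Ly6c2 side and 3897 on the Ace side.

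Genes outside the criteria also differed between the sides, which is a description and supports nothing about the division. Of 595 genes with at least 100 UMIs over all monocytes, 12.1% were past 2-fold higher on the Ly6c2 side and 6.39% past 2-fold higher on the Ace side, with a median log2 ratio of 0.18. These counts include Ly6c2, Chil3 and Ace, which set the sides. The Ly6c2 side held 337912 of the 448039 UMIs of the monocytes. F13a1, Thbs1, Ccr2, Ms4a4c and Fn1 reached the minimum of 100 UMIs through that side alone, so their ratios below are a description only. Of 9 classical monocyte genes that reached 100 UMIs 8 were higher on the Ly6c2 side, as were 372 of the 595, and 4 of them were past 2-fold, with a median log2 ratio of 0.83. Ccr2, the receptor for the chemokine Ccl2, was at 222, 634 and 628 CPM on the Ly6c2 side of WT CD, WT HFD and KO HFD and at 0, 193 and 16.3 CPM on the Ace side. F13a1, the A chain of coagulation factor XIII, gave 160 UMIs on the Ly6c2 side and 1 on the Ace side. Thbs1 itself gave 207 UMIs on the Ly6c2 side (613 CPM) and 3 on the Ace side (32.5 CPM), a log2 ratio of 4.23. Its level on the Ly6c2 side was 376, 540 and 706 CPM in the 3 libraries, above the Ace side (0, 96.6 and 16.3 CPM) in each. Fibronectin (Fn1) stood at 861 against 130 CPM over all libraries, where the proteoglycan Vcan was also higher on the Ly6c2 side, and Ms4a4c was higher there in each library.

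Transcripts known from nonclassical monocytes were mostly higher on the Ace side. All 4 nonclassical genes that reached 100 UMIs were higher there, as were 223 of the 595. Of the 4, 3 were past 2-fold, and the median log2 ratio of the Ly6c2 side over the Ace side was -1.91. Nr4a1 and Itgal, with 57 and 58 UMIs on the Ly6c2 side, reached 100 only with the Ace side counts. The ratios of Nr4a1 and Itgal are therefore a description only. Nr4a1, the nuclear receptor on which these cells depend, was at 1583, 531 and 929 CPM on the Ace side of the 3 libraries and at 205, 162 and 161 CPM on the Ly6c2 side. Itgal, which pairs with Itgb2 and binds endothelium, was at 1484, 869 and 782 CPM against 205, 121 and 180 CPM. The values of the 3 libraries did not overlap between the sides for either gene, nor for Ccr2, F13a1, Thbs1 and Ms4a4c. How many of the 595 genes did not overlap was not counted, so this sets no gene apart. Among genes under 100 UMIs Cd300e gave 23 UMIs on the Ace side and 0 on the Ly6c2 side, and Treml4 (315 against 35.5 CPM), the sialoglycoprotein Spn (434 against 44.4 CPM), Adgre4, Eno3, Pou2f2, Stap1 and Ceacam1 were higher on the Ace side over all libraries. Their values in a single library rest on few UMIs. The scavenger and fatty acid receptor Cd36, one of the receptors of Thbs1, was at 749 CPM on the Ace side and 20.7 CPM on the Ly6c2 side. Cx3cr1, the fractalkine receptor usually used to mark nonclassical cells, did not divide them, at 152 and 142 CPM. Immediate early genes summed to 15732, 15114 and 14080 CPM on the Ace side and 7899, 9998 and 11933 CPM on the Ly6c2 side. Among genes with at least 100 UMIs Gsn was the one most raised on the Ace side, at a log2 ratio of -4.14, but 197 of its 202 UMIs came from the barcode with FAP transcripts.

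**Figure D2:**
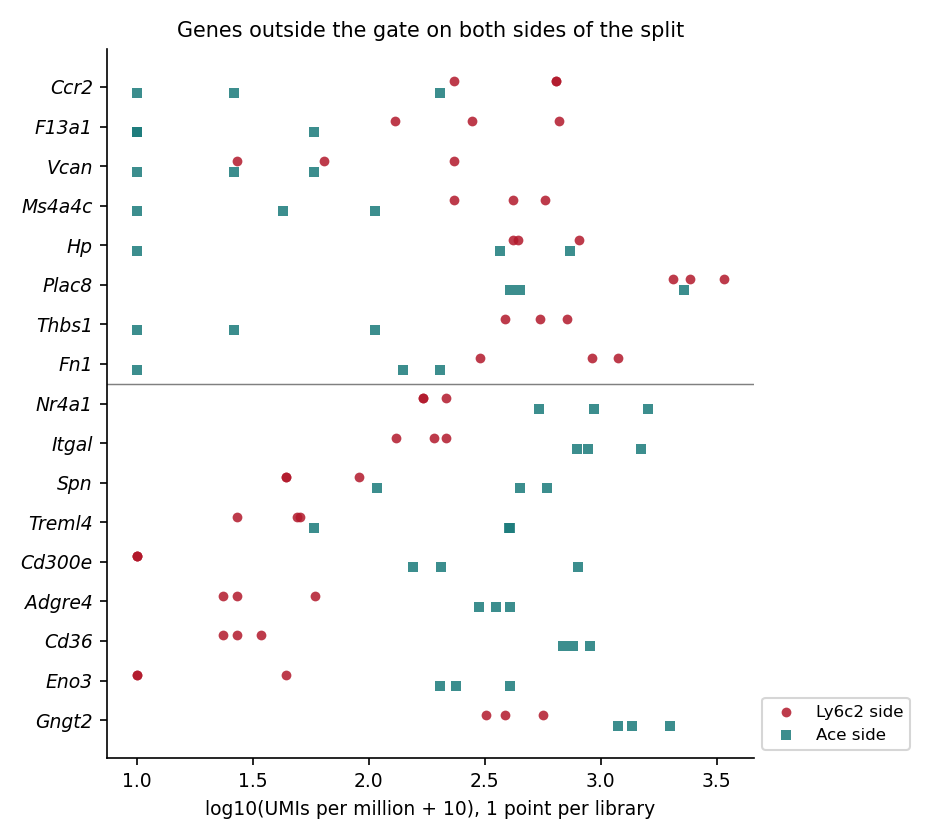
Points give levels of 8 genes higher on the Ly6c2 side or known from classical monocytes (upper) and 9 nonclassical genes (lower) as log10 of CPM plus 10, 1 point per library, circles for the Ly6c2 side (41 monocytes) and squares for the Ace side (22). A value of 1 is no UMI. Plac8, Hp and Vcan overlap between the sides and the other genes plotted do not. How many of all genes measured do not overlap was not counted.

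The MHC class II genes H2-Aa, H2-Ab1 and H2-Eb1 were high in a few of the monocytes and at 0 in most, while Cd74 was found in 5 of 9, 8 of 14 and 27 of 43. Cd74 was at 3372, 2707 and 3262 CPM in the whole libraries, and the part of its UMIs from other cells was not measured. The class II genes make the complex that shows antigen to T cells, and monocytes raise them on the way to antigen-presenting cells. Of the 66 monocytes 45 had no UMI of H2-Aa, H2-Ab1 or H2-Eb1, 11 had 1 to 9 and 10 had 10 or more, with none between 9 and 46. The 10 were 3 of 9 in WT CD (33.3%, exact interval 7.49 to 70.1), 4 of 14 in WT HFD (28.6%, 8.39 to 58.1) and 3 of 43 in KO HFD (6.98%, 1.46 to 19.1). Of these, 9 were on the Ly6c2 side, 1 was tied and 0 were on the Ace side. Within them the 3 genes stood at 18930, 9794 and 10952 CPM, so the level per positive monocyte in KO HFD lay between the others, while over all monocytes it was 9330, 3759 and 1069 CPM. The limit of 10 UMIs was set after the values were seen. A single WT CD barcode of 16481 UMIs gave 485 class II UMIs, 75.8% of those of its library, and it also held 13 UMIs of Cd209a, a lectin of monocyte-derived dendritic cells, and 11 of T and NK cell markers. Cd209a gave 33 UMIs in 3 monocytes, and 31 of these UMIs were in the 10. Ccr2 was at 420 CPM in the 10 and 439 CPM in the other monocytes, and Ly6c2 at 210 and 598 CPM.

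**Figure D3:**
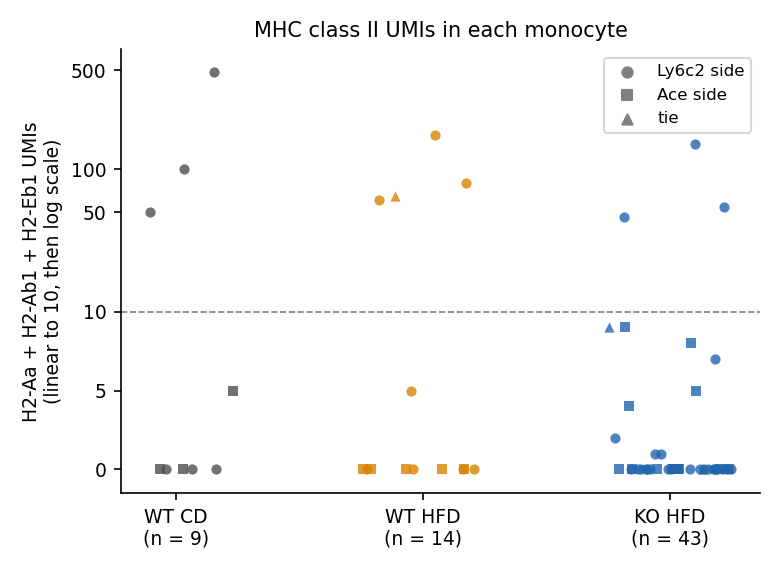
Each point is 1 monocyte, with the sum of H2-Aa, H2-Ab1 and H2-Eb1 UMIs on the vertical axis (linear to 10, then log), the library on the horizontal axis and the shape giving its side. Above the dashed line at 10 lie 3 of 9 WT CD, 4 of 14 WT HFD and 3 of 43 KO HFD monocytes, and no square (Ace side).

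Between the diets, WT HFD monocytes had more transcript of Fn1 and Ccr2 and less of Ccl2 than WT CD monocytes. Of 595 genes 14 (2.35%) were past 2-fold higher and 13 (2.18%) past 2-fold lower, together 4.54%, with a median log2 ratio of -0.02. Scaling by TMM in place of the UMI total shifted that median to -0.14 and gave 9 higher and 17 lower. The largest ratio was that of Fn1, with 17 UMIs in WT CD and 92 in WT HFD (248 and 898 CPM), a log2 ratio of 1.86 (exact Poisson 95% interval 1.10 to 2.70). Ccr2 was at 190 and 498 CPM (1.39, 0.49 to 2.40), and Ms4a4c at 190 and 508 CPM (1.42, 0.52 to 2.42). The Ms4a4c ratio turned to -0.27 when the criteria were applied after thinning each barcode to 3000 UMIs. F13a1, from 7 and 21 UMIs, was at 1.01 with an interval of -0.28 to 2.48, and it was not past 2-fold after thinning (0.95) or with TMM (0.89). Fn1 was in 3 of 9 and 10 of 14 monocytes, and 76.5% of the Fn1 of the WT CD library came from a single barcode. The whole libraries held Fn1 at 645 and 929 CPM, and the part of UMIs from other cells was not measured. Ccr2 was in 5 of 9 and 7 of 14 monocytes (0.543 and 0.382% of barcodes with 2 or more Pdgfra UMIs). Of the 9 classical genes F13a1, Ccr2 and Ms4a4c were past 2-fold higher and none past 2-fold lower, with a median of 0.89. Within the same 9 genes Mgst1 (-0.97) and Ifitm6 (-0.86) were lower in WT HFD, and so was Ly6c2 (-0.91), a gene of the criteria. The median of the 4 nonclassical genes was -0.18. The other genes among the 10 largest ratios were the lysosomal membrane protein Lamp2 (1.46), Mrpl52, the cytoskeletal linker Macf1, Ndufb8, the endocytic receptor Lrp1 (1.21), Hnrnpa3 and the lipid droplet coat protein Plin2 (1.11, 0.19 to 2.14, from 13 and 42 UMIs). With Ear2 left out of the criteria Lamp2, Mrpl52, Macf1 and Lrp1 were not past 2-fold, and on the Ly6c2 side alone Lamp2, Macf1, Lrp1 and Plin2 were not. After thinning Hnrnpa3, Macf1 and Mrpl52 were not past 2-fold, and with TMM Plin2 was not.

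Lower in WT HFD monocytes were the protease inhibitor Slpi (-1.90), the heme-degrading enzyme Hmox1 (-1.84), Ccl2, H2-Eb1, Cd74, H2-Ab1, Ccl4, Apoe, Lsp1 and Cd68. Ccl2, the ligand of Ccr2, gave 98 and 49 UMIs (1429 and 478 CPM), a log2 ratio of -1.58 (-2.10 to -1.07), and 54.1% of the WT CD value came from a single barcode. Of the 6 class II genes tested 4 were past 2-fold lower and the median was -1.23. That difference was carried by the WT CD barcode described above, which gave 85.1% of H2-Eb1 and 76.4% of Cd74, and without the top barcode of each library the ratio of H2-Eb1 turned to 0.13 and the median of the class II genes was -0.06. The dendritic cell list, at 364 and 234 CPM, was also lower in WT HFD and its part in the class II difference was not tested. Without the top barcode Ccl2 was still past 2-fold lower (-1.19) and Hmox1 was not (-0.83), nor was Hmox1 on the Ly6c2 side alone (-0.25). Slpi gave 20 UMIs in 2 WT CD monocytes, 85% of them from a single barcode, and 8 in WT HFD. Without the top barcode Slpi was at the floor of 3 UMIs in both libraries, so no ratio could be given, and none could be given after thinning. After thinning Cd74, Lsp1 and Apoe were not past 2-fold, and on the Ly6c2 side alone Cd68 was not. Ccl4 came from 1 barcode in each WT library. Ccl4 and Cd68 reached the minimum of 100 UMIs only with the WT CD counts, so their ratios are a description only. Apoe was at 2245 and 1006 CPM (-1.16), but its ratio was 0.01 when Ear2 was left out of the criteria.

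The comparison of genotypes shares the WT HFD library with the comparison of diets, and Thbs1, the gene targeted in the KO line, is given before the others. Monocytes held 22 UMIs in WT CD, 44 in WT HFD and 149 in KO HFD, which is 321 CPM (201 to 486), 430 CPM (312 to 577) and 538 CPM (455 to 631). Thbs1 was found in 5 of 9, 7 of 14 and 24 of 43 monocytes, with a median of 1 UMI per monocyte in each library. The part of these UMIs from other cells was not measured. The whole libraries held 4665, 6459 and 5961 Thbs1 UMIs, 136, 202 and 163 CPM. The Thbs1 transcript was thus not depleted in the library labelled KO HFD. The 3′ tag counted here can lie outside the deleted part of the gene, so this neither checks the label nor says anything of the protein. C1q macrophages held 94.9, 375 and 77.0 CPM of Thbs1.

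Summed over the monocytes of a library, KO HFD had less transcript of H2-Eb1, H2-Aa and H2-Ab1 and more of Ier3 than WT HFD. Of 595 genes 13 (2.18%) were past 2-fold higher and 6 (1.01%) past 2-fold lower, together 3.19%, with a median log2 ratio of 0.04. The 13 include Chil3, a gene of the criteria. Scaling by TMM shifted that median to 0.23 and gave 24 higher and 5 lower. The minimum of 100 UMIs was summed over 3 libraries, and KO HFD gave 277019 of the 448039 UMIs of the monocytes. Of the 10 largest rises outside the criteria, all but Apoe reached it only with the KO HFD counts, as did Chil3. H2-DMa reached it only with the WT HFD count. These ratios are a description only, and the counts of higher and lower genes cannot be weighed against each other. H2-Eb1 gave 100 UMIs in WT HFD and 62 in KO HFD (976 and 224 CPM), a log2 ratio of -2.13 (-2.61 to -1.65). It was in 5 of 14 and 7 of 43 monocytes, and a single barcode gave 45.0% of it in WT HFD and 69.4% in KO HFD. The interval treats UMIs as independent and is therefore too narrow. Monocytes with 10 or more UMIs of H2-Aa, H2-Ab1 and H2-Eb1 were 4 of 14 and 3 of 43, with overlapping exact intervals. Within them the level was 9794 and 10952 CPM, not lower in KO HFD. H2-Eb1 was followed by H2-Aa (-1.74), H2-Ab1 (-1.70), Cd74 (-1.39) and the class II loading factor H2-DMa (-1.20). Of the 6 class II genes tested 5 were past 2-fold lower, with a median of -1.54, which was -0.98 with Ear2 left out of the criteria. Cd74 and H2-DMa were then not past 2-fold, and H2-DMa was not past it after thinning, with means over cells or without the top barcode. The summed class II list was at 24244, 11081 and 4935 CPM in monocytes and at 41905, 28758 and 32885 CPM in C1q macrophages of the 3 libraries. The ratio of H2-Eb1 was -3.11 without the top barcode of each library. The dendritic cell list was at 234 CPM in WT HFD and 36.1 CPM in KO HFD, and its part in the class II difference was not tested. Class I genes did not follow, with a median of -0.02 over 4 genes. Of the other 5 genes among the 10 lowest, Gnas (-1.14) rested for 52.0% on 1 WT HFD barcode and was not past 2-fold after thinning, with TMM, with means over cells or without the top barcode, and Snrpe, Ctsz, Jpt1 and the immunoproteasome subunit Psmb8 were within 2-fold.

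Il1b, the cytokine interleukin-1 beta, was at 408, 273 and 671 CPM in WT CD, WT HFD and KO HFD monocytes, a log2 ratio of KO HFD to WT HFD of 1.30 (0.72 to 1.92), and was found in 7 of 14 and 33 of 43 monocytes, against 0.255 and 0.681% of the barcodes with 2 or more Pdgfra UMIs. In C1q macrophages it was at 282, 97.5 and 123 CPM and in Flt3 barcodes at 404, 331 and 557 CPM. These were 37, 20 and 38 barcodes with an Flt3 UMI, 10 or more UMIs of Cd74, H2-Aa and H2-Ab1 together, and no Cd79a. In them B cell markers summed to 30968, 82.7 and 29547 CPM and dendritic cell markers to 843, 614 and 961 CPM. The Flt3 barcodes thus differed in make-up between the libraries and may not be dendritic cells alone. Ier3, an early response gene, was at 423, 498 and 1458 CPM (1.55, 1.13 to 2.0) and spread over 36 of 43 KO HFD monocytes, with no barcode above 8.42% of its UMIs. Tppp3, a tubulin-binding protein, gave 6, 6 and 96 UMIs (2.56, 1.39 to 4.05). F13a1 was at 102, 205 and 484 CPM (1.24, 0.57 to 1.98), and Apoe at 2245, 1006 and 3346 CPM (1.73, 1.44 to 2.04). Chil3, a gene of the criteria, was at 437, 244 and 758 CPM (1.63, 1.03 to 2.30). Outside the genes of the criteria, the other genes among the 10 largest ratios were Gsn (2.81), Slpi (2.15), the lysosomal protease Ctsd (1.98), Cd68 (1.26) and Apoc2 (1.12). The Gsn value came for 86.4% from the barcode with FAP transcripts, and without the barcodes called doublets its ratio was -0.01. A single barcode also gave 61.4% of Ctsd and 51.0% of Slpi. With means over cells F13a1 was not past 2-fold (0.59), and Apoc2 was not past it with Ear2 left out, after thinning or on the Ly6c2 side alone, nor Cd68 on the Ly6c2 side alone. The Il1b ratio was 0.72 on the Ly6c2 side alone and 0.50 with Ear2 left out of the criteria, so it was not past 2-fold in either. The Apoe ratio was 2.91 on the Ly6c2 side alone but 0.68 when the criteria were applied after thinning each barcode to 3000 UMIs. Apoe is abundant in macrophages, with 6638, 6991 and 6350 CPM in the C1q macrophages, and of the 13 macrophage markers 6 were at 0 in the monocytes of all 3 libraries, while Adgre1 gave 35 UMIs, Trem2 32, and Cd163 and Mrc1 4 each. The part of macrophage transcripts in the Apoe difference was not tested. The FAP markers summed to 1238 CPM in KO HFD monocytes against 166 in WT HFD, and apart from Gsn their part in these differences was not tested.

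**Figure D4:**
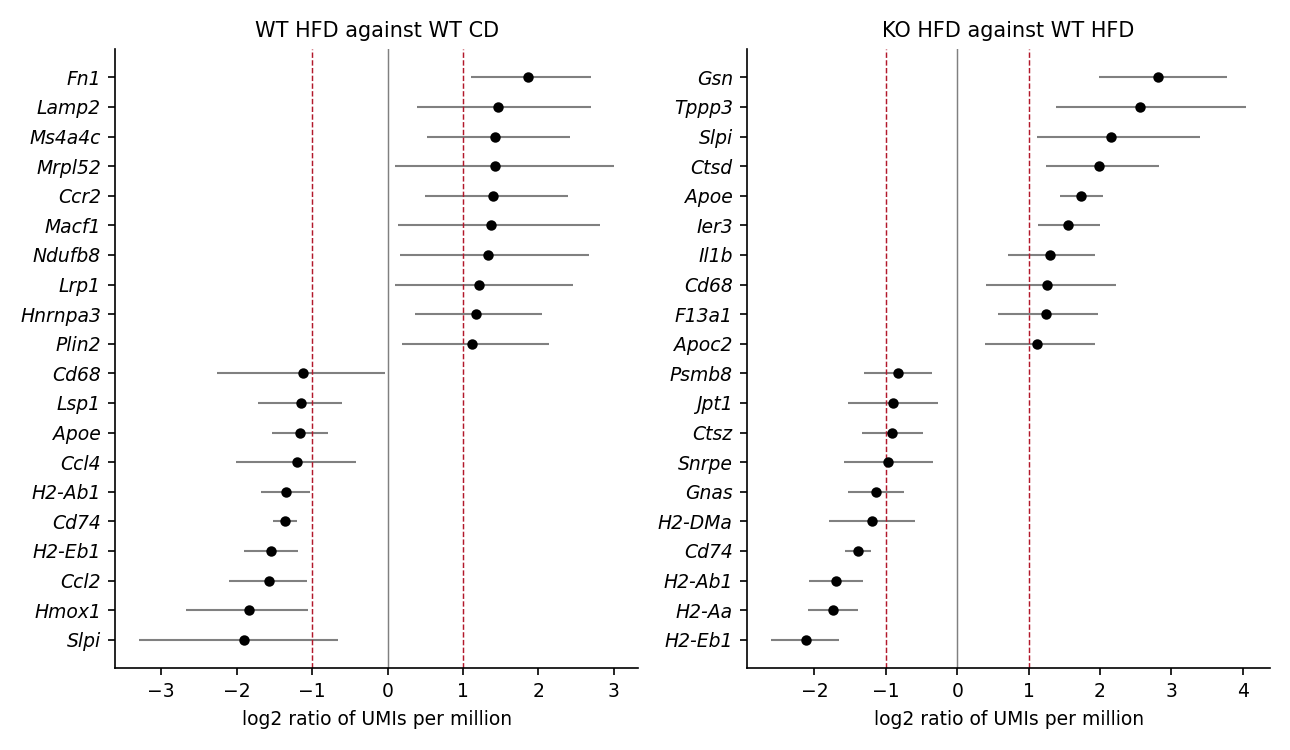
Log2 ratios of CPM for the 10 highest and 10 lowest genes outside the genes of the criteria, with exact Poisson 95% intervals (counting error only) and dashed lines at 2-fold. Monocytes of WT HFD are set against WT CD (left) and of KO HFD against WT HFD (right). H2-Eb1, H2-Ab1 and Cd74 are low in both panels, Fn1 leads the left panel and Gsn, of which 1 barcode gave 86.4%, leads the right.

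The counts of the other lists stand beside 4.54% of the 595 genes past 2-fold between the diets and 3.19% between the genotypes. Among 8 inflammatory mediators tested, 2 (Ccl2 and Ccl4) were past 2-fold lower in WT HFD than in WT CD and 1 (Il1b) past 2-fold higher in KO HFD than in WT HFD, with medians of -0.42 and 0.23. The neutrophil-attracting chemokine Cxcl2 was at 1779, 2890 and 3343 CPM with ratios of 0.70 and 0.21. Of 13 immediate early genes tested 1 was past 2-fold higher in each comparison, Jun (1.11) between the diets and Ier3 between the genotypes, with medians of 0.24 and 0.16. The Jun ratio turned to -0.53 after thinning and was not past 2-fold with TMM, means over cells or without the top barcode. Among 6 migration receptors and adhesion genes 1 was past 2-fold higher (Ccr2) and 1 lower (Itgb2, -1.06) in WT HFD, and none in KO HFD. Among 6 matrix and repair genes Fn1 and F13a1 were past 2-fold higher in WT HFD, and F13a1 in KO HFD, with medians of 0.49 and 0.53. Of 5 thrombospondin receptor genes tested 1 (Lrp1) was past 2-fold higher in WT HFD and none in KO HFD, and Cd47 was at 554, 488 and 523 CPM. Of 4 lipid handling genes Apoe was past 2-fold lower in WT HFD and higher in KO HFD, and Plin2 higher in WT HFD. Among 13 shared myeloid genes 1 (Cd68) was past 2-fold in each comparison, lower in WT HFD and higher in KO HFD, while Csf1r, the receptor that sustains these cells, was at 467, 391 and 440 CPM.

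No gene was past 2-fold in either comparison among the 4 interferon response genes tested (medians -0.26 and 0.26), the 4 S100 genes (-0.21 and 0.37), the 4 heat shock genes (-0.12 and -0.20), the 5 glycolysis and hypoxia genes (0.27 and 0.13), the 4 nonclassical genes (-0.18 and 0.22), the 4 class I genes (0.14 and -0.02), the 2 Fc and pattern receptor genes (0.04 and 0.30) or the 1 gene of fatty acid response and oxidation, Ucp2 (0.12 and 0.06). Among the S100 genes S100a4 was at 3032, 3056 and 3624 CPM. The 15 genes of sterol synthesis were each under 100 UMIs and summed to 685, 127 and 296 CPM, and the 11 cell cycle genes to 14.6, 117 and 54.1 CPM, that is 1, 12 and 15 UMIs.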

How the data were processed

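Per the labels and the study's methods, the 3 libraries were made with the 10x Genomics 3′ v3.1 chemistry and aligned to GRCm38 with Cell Ranger 6.1.1. The authors deposited unnormalized UMI counts for 32285 genes in barcodes called as cells. All barcodes were used. Counts were summed over the monocytes of a library, counts under 3 were set to a floor of 3, and log2 ratios of UMIs per 1000000 (CPM) were taken for 595 genes with at least 100 UMIs over the monocytes. Each group is 1 library, so there was no test, and a gene was called past 2-fold. Intervals are exact (Clopper-Pearson, Poisson) or Newcombe 95% intervals and cover counting error only. The ratio step was tested on simulated data. The monocytes, the criteria and the 31 gene lists were chosen with earlier results of these data known.

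Named genes are those of the criteria and lists, Thbs1 and Ly6c1, the 10 most abundant, and the 10 highest and lowest of each contrast. Ribosomal, mitochondrial and unnamed gene models were left out of these rankings, and genes of the criteria were left out of the contrasts. Alternatives were other limits on C1q and Lyz2, Ear2 left out of the criteria, thinning to 3000 UMIs, Scrublet doublets or barcodes with under 500 genes or over 10% mitochondrial UMIs left out, other denominators, other splits of the sides, TMM scaling (edgeR 4.0.16 in R 4.3.3), DESeq2 1.42.0 size factors, means over cells, Ly6c2 side monocytes only, minimums of 300 UMIs or none, and, chosen after seeing the data, leaving out the barcode with most UMIs of each gene. The work used Python 3.11.15, pandas 2.3.3, numpy 2.4.6, scanpy 1.11.5, scipy 1.17.1 and, for plots, matplotlib 3.10.9. 1 gene of the lists is not reported singly here.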

Additional observations from a re-analysis of the deposited data

How the results depend on the processing

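With 1 library per group no library could be left out. No paired analysis was possible because each group has a single library and no mouse is named for a barcode. The KO HFD share of monocytes stayed above the WT HFD share, by 0.575 to 0.680 points of all barcodes, under the 4 other criteria that changed the monocytes or the barcodes counted, and 2 stricter limits on C1q and Lyz2 removed no monocyte. It was 3.61 points higher among Ptprc barcodes and 4.23 among Lyz2 barcodes, and WT HFD was 0.987 points above WT CD among Ptprc barcodes. The Ace side share differed between WT HFD and WT CD by -12.7 to 9.52 points and between KO HFD and WT HFD by -9.52 to 3.82 points over the alternatives, both within the counting intervals of the values reported.

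The number of genes past 2-fold depended on the setting, and so did the number of genes tested, 595 in the values reported, 762 with Ear2 left out, 252 after thinning, 212 at a minimum of 300 UMIs, and 3735 (diets) or 5964 (genotypes) with no minimum. After thinning the share higher between the diets was 2.38% against 2.35%, but 0 of the genes called with the minimum applied were shared. For WT HFD against WT CD, 14 higher became 24 with Ear2 left out, 6 after thinning, 9 with TMM, 1 at a minimum of 300 UMIs, 343 with no minimum and 33 without the top barcode, and 13 lower became 7 after thinning, 22 with means over cells, 7 at 300 UMIs and 241 with no minimum. For KO HFD against WT HFD, 13 higher became 4 after thinning, 24 with TMM, 2 at 300 UMIs, 225 with no minimum and 27 without the top barcode, and 6 lower became 11 with Ear2 left out, 3 after thinning and 1170 with no minimum. The floor of 3 UMIs stood at 43.7, 29.3 and 10.8 CPM in WT CD, WT HFD and KO HFD. With no minimum, a gene above the floor in WT HFD and at it in KO HFD is therefore always past 2-fold lower. How much of the shifts with no minimum this makes was not tested.

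Among ratios past 2-fold, those that changed sign between WT HFD and WT CD were Apoe, the only gene tested among the macrophage markers (0.0068 with Ear2 left out), Ms4a4c (-0.27) and Jun (-0.53) after thinning, and H2-Eb1 (0.13 without the top barcode). Between KO HFD and WT HFD Gsn changed sign (-0.013 without doublets, -0.23 on the Ly6c2 side). Ratios within 2-fold also changed sign, among them Il1b between the diets (-0.58, and 1.37 on the Ly6c2 side alone) and Ms4a4c and Jun between the genotypes. The causes of the other changes were not tested. Counted over the called genes themselves, whether or not they still reached the minimum of 100 UMIs, 13 of 27 between the diets stayed past 2-fold after thinning, 18 without the top barcode and 19 with Ear2 left out or on the Ly6c2 side alone. Of the 19 between the genotypes, 13 stayed with Ear2 left out, 14 after thinning (of which 3 higher and 3 lower still reached the minimum) or on the Ly6c2 side alone and 16 without the top barcode.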
